A study of Mus musculus with 6 samples.

Results

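The genes described here encode the extracellular matrix and its cell surface receptors: collagens, laminins, integrin chains and 11 further matrix and receptor genes, among them fibronectin, perlecan, agrin, dystroglycan and the laminin receptor Bcam. They were chosen by name. Of the 18065 genes in the deposited normalized table, 88 carried such a name: 43 collagens, 10 laminins, 16 integrin alpha chains, 8 integrin beta chains and the 11 others. A further 4 matching names were in the raw counts only, where no library reached 10 reads. Of the 88, 81 had enough reads to be tested. Bcam and Mamdc2 were on the list with their values in these libraries already known, so their values are a description.

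RNA was sequenced from tdTomato-positive cells sorted from the mouse telencephalon at E11.5 (strain C57BL/6, labelled as MGE cells), where E is the embryonic day. The 4 control libraries had the genotype Nkx2.1-Cre;ROSAloxSTOPloxTdTomato. The 2 heterozygous libraries had Magoh lox/+ in addition to the same Cre and reporter, so every library carried both transgenes and no group lacked Cre. Magoh belongs to the exon junction complex, which splicing leaves on mRNAs, and the comparison is of MGE (medial ganglionic eminence) cells with and without a floxed Magoh allele. Cre from Nkx2.1 acts in the MGE and in other Nkx2.1-expressing ventral cells. The labels do not say whether embryos were pooled or whether libraries came from separate embryos, so the tests below measure library-to-library spread, which may be technical.

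The basement membrane is a thin sheet of laminin and type IV collagen networks, joined by nidogen, perlecan and agrin. In the embryonic brain it lies under the pia, where the end feet of radial glia attach to it, and around blood vessels. Integrins are receptors of an alpha and a beta chain that bind laminin, collagen or fibronectin, and dystroglycan and Bcam bind laminin outside the integrin family. The space between neural cells holds little fibrillar collagen and much proteoglycan, such as neurocan and versican.

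The libraries differed in ways that bear on these genes. Total counts ran from 37429290 to 49189360. Reads from 4 Y-linked genes numbered 3453 to 4291 in 4 libraries and 0 in the other two, control 2 and heterozygous library 1. Long transcripts were low relative to short ones in that pair. The median log2 deviation of genes with at least 8000 nt of exon, minus that of genes under 1000 nt, was -0.75 for control 2, -0.32 for heterozygous library 1 and 0.12 to 0.38 for the rest. Matrix genes are long, with a median of 7.28 kb of exon against 4.08 kb for all tested genes. Control 2 was below the other 3 controls for 60 of the 81 tested members (74.1%), where the same held for 36.8% of all tested genes, and for 40 (49.4%, against 28.3%) once each library was corrected for exon length and GC. Results are therefore also given with these length and GC trends removed, and within the 2 sets of libraries: heterozygous 1 against control 2, and heterozygous 2 against controls 1, 3 and 4. Magoh itself stood at 68.1, 118, 63.6 and 74.3 CPM (read counts scaled to library size) in controls 1 to 4 and at 57.1 and 48.5 CPM in the heterozygous libraries (log2 fold change -0.62 ± 0.27, SE, edgeR adjusted p = 0.85). Nkx2-1 was at 339 to 561 CPM in controls and at 349 and 466 CPM in heterozygous cells.

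Most matrix and integrin genes stood lower in the heterozygous libraries, but none passed the test over all genes. Of the 81 tested members, 61 had a log2 fold change below 0 (75.3%, against 53.9% of all tested genes), with a median of -0.54 against -0.03 over all genes. With edgeR, 0 members passed at an adjusted p of 0.05, as did 0% of all genes. At an unadjusted p under 0.05, 25 members were lower (30.9%, against 3.98% of all genes) and 1 was higher (1.23%, against 1.75%). DESeq2 called 7 members lower, 8.43% of those with an adjusted p against 0.328% of all genes, and 0 higher, against 0.0293%. Among them were Bcam, Mamdc2, Col2a1, Col4a6, Col8a1 and Col25a1. Bcam and Mamdc2 were listed with their values known and are included in the member counts here. The shares of members are therefore in part set by that choice. By its unadjusted p 27 members were lower (30.7%, against 4.59%), and 64 of 88 had a value below 0 (72.7%, against 56.3%). limma-voom called 0 after adjustment, with 21 lower (25.9%, against 3.44%) and 3 higher (3.7%, against 2.48%) at an unadjusted p under 0.05. Both heterozygous libraries lay below all 4 controls for 18 members (22.2%, against 8.14% of all genes) and above them for 2, Col6a3 and Itgam (2.47%, against 6.17%).

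Among well expressed members nearly all values were below 0. Of the 35 members with a mean of at least 10 CPM, 34 were below 0, with a median of -0.71. Neurocan (Ncan) was the exception. Of the 9388 genes of all kinds at that level, 4885 were below 0, with a median of -0.01. Heterozygous library 1 was below control 2 for 21 of the 35, and for 4817 of the 9388. Heterozygous library 2 was below the mean of controls 1, 3 and 4 for 34 of the 35, and for 4521 of the 9388. The count of 26 members at an unadjusted p under 0.05 rests on few libraries: it was 16 without control 3 and 17 without control 4. The matching counts over all genes are not given, so these values cannot show whether the drop is particular to members. Without control 2 and heterozygous library 1 together, an alternative chosen after seeing the data, 43 members were lower (51.8%, against 11.4% of all genes) and 2 higher (2.41%, against 6.43%). There 67 of 83 were below 0 (80.7%, against 53.8%). Within the sets of libraries the picture was unequal. Heterozygous library 2 was below the mean of controls 1, 3 and 4 for 66 of 81 members (81.5%, against 52.5% of all genes), with a median difference of -0.81 log2 units. Heterozygous library 1 was below control 2 for 33 of 81 (40.7%, against 50.4% of all genes), with a median of 0.10. By their median, members were lower in the first of these comparisons and not in the second.

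With length and GC trends removed, the median over members was -0.34, against 0.08 over all genes. Then 26 members were lower at an unadjusted p under 0.05 (32.1%, against 3.57%) and 3 higher (3.7%, against 4.27%), and again 0 passed with adjustment. Both heterozygous libraries then lay below all controls for 29 members (35.8%, against 6.68% of all genes). The unequal sets remained on that scale. Members had a median of -0.12 for heterozygous 1 against control 2 and -0.68 for heterozygous 2 against controls 1, 3 and 4, where all genes had -0.03 and 0.13. In bulk RNA, fewer cells of a type and less RNA per cell cannot be told apart.

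**Figure D1:**
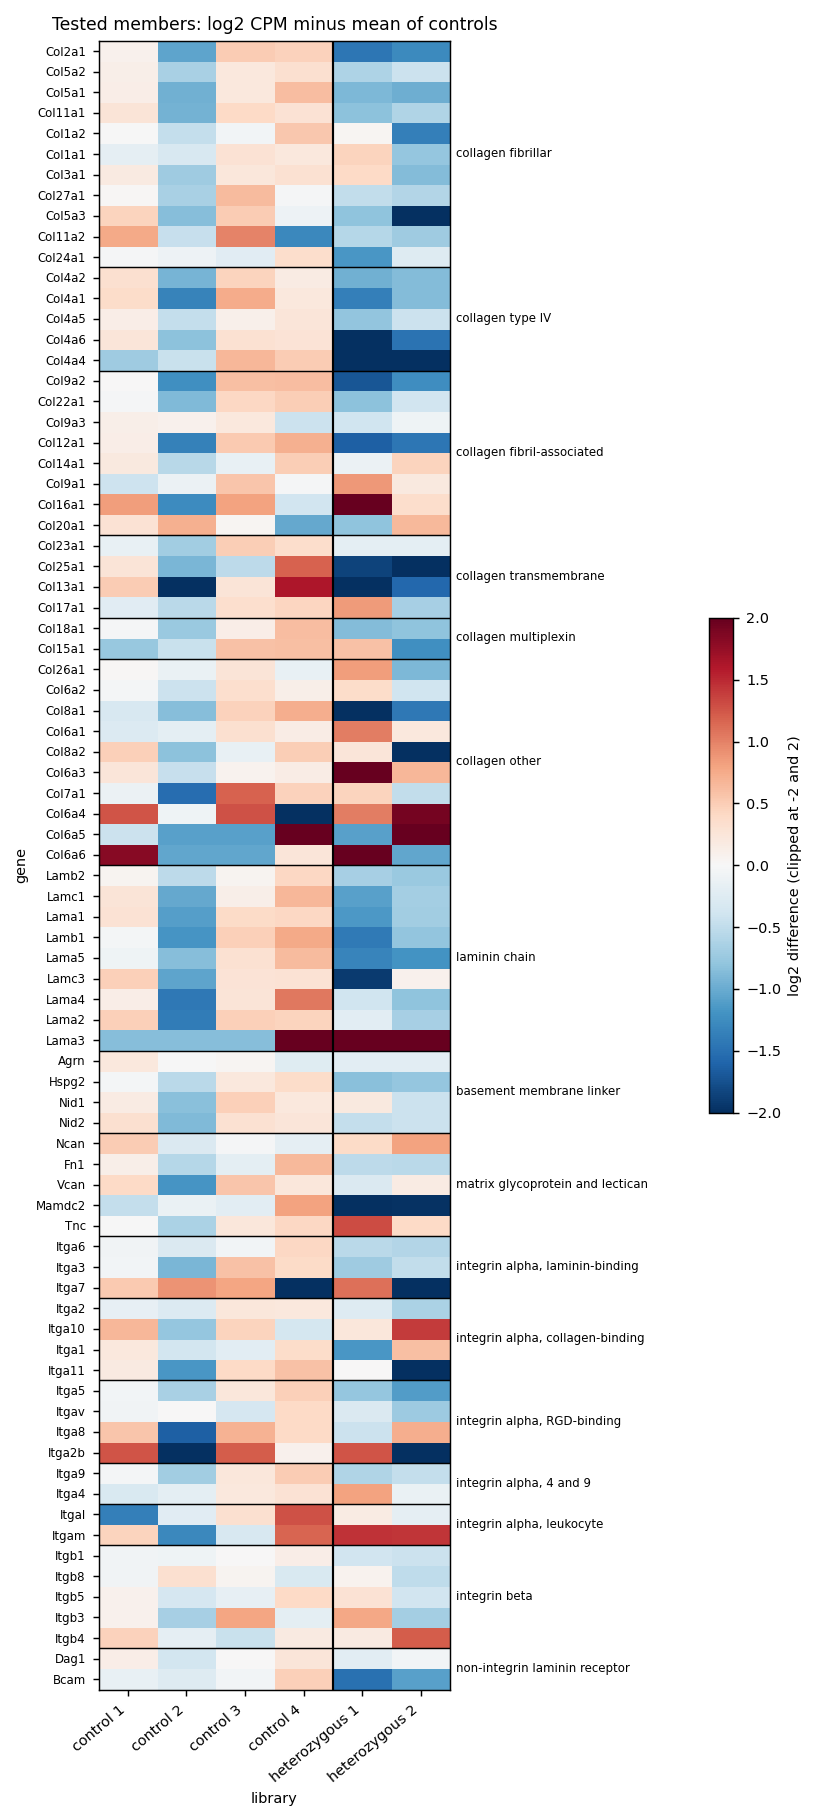
Rows are tested members reported here, grouped by role, and each column a library; colour gives log2 CPM minus the mean of the 4 controls, clipped at -2 and 2. Blue fills much of control 2 as well as both heterozygous libraries, and Bcam, Mamdc2, Col4a6 and Col4a4 are blue in both heterozygous libraries but paler in control 2.

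DESeq2 called 7 members, and 4 of them have an upstream sequence in RefSeq's GRCm38.p6 table. For 3 of these the 250 bases before the transcription start overlap no annotated exon. They are shown because only DESeq2 among the tools named above called members, and these are among its calls. Capitals mark the motif GGGCGG, known as a GC box, and the motif CCAAT, on either strand. A GC box on the opposite strand therefore reads as the reverse complement. The windows are chr3:130180595-130180844 (plus strand), chrX:141474077-141474326 (minus strand) and chr16:57754738-57754987 (minus strand), each 5′ to 3′.
Col25a1: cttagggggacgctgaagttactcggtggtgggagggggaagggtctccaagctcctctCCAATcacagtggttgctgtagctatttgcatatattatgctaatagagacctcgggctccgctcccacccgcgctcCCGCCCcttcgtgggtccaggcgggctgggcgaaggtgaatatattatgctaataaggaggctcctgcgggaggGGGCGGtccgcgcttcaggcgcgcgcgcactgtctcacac
Col4a6: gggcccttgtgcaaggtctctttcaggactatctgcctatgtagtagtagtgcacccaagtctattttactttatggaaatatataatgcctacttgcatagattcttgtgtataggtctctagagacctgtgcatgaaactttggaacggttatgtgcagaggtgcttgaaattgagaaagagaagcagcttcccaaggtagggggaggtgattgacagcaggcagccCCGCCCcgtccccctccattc
Col8a1: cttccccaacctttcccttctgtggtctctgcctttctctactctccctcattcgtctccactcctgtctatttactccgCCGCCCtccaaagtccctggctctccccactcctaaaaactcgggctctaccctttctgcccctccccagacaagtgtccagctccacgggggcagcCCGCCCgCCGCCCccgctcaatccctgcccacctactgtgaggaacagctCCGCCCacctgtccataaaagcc

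All 3 windows hold a GC box: 4 in Col8a1, 2 in Col25a1 and 1 in Col4a6. CCAAT was found in Col25a1 only. Of 32851 upstream windows of this length, 32.7% hold GGGCGG and 33.8% hold CCAAT on either strand. Among the 72 windows of the 64 members in the table, 56.9% hold GGGCGG and 29.2% CCAAT. Among the 19 windows of lower members (unadjusted p under 0.05), 14 hold GGGCGG and 7 CCAAT. In the printed windows no match overlaps another, and a match is a description of the letters only.

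Type IV collagen, the network-forming collagen of basement membranes, was low across its tested chains. The median log2 fold change of its 5 tested genes was -1.28. Each was lower at an unadjusted p under 0.05, where 3.98% of all tested genes were. The genes lie in head-to-head pairs. Col4a1 and Col4a2 start 21 bases apart on chromosome 8, with overlapping first exons, and Col4a6 and Col4a5 start 1343 bases apart on chromosome X.

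Col4a1 and Col4a2 form the common collagen IV molecule. Col4a2 stood at 107, 45.2, 118 and 96.5 CPM in controls 1 to 4 and at 44.3 and 47.2 CPM in the heterozygous libraries. Col4a1 stood at 77.9, 23.9, 100 and 69.8 CPM in controls and at 23.2 and 32.8 CPM in heterozygous cells. For both genes control 2 lay at the level of the heterozygous libraries, and the other 3 controls were higher. The log2 fold changes were -1.003 ± 0.36 (SE) for Col4a2 and -1.28 ± 0.51 for Col4a1 (edgeR adjusted p = 0.841 and 0.85). Heterozygous library 1 differed from control 2 by only -0.03 and -0.04, and heterozygous library 2 from the other controls by -1.18 and -1.31. With length and GC trends removed both heterozygous libraries lay below every control for the pair, with log2 fold changes of -0.85 and -1.06. Per exon length, Col4a2 was 1.32 to 2.16 times Col4a1 in each library.

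Col4a6 (ENSMUSG00000031273; chromosome X, 141165403 to 141474076, minus strand, GRCm38) encodes a minor chain that pairs with the product of Col4a5. It stood at 8.52, 4.03, 8.86 and 8.66 CPM in controls and at 1.77 and 2.54 CPM in heterozygous cells. Both heterozygous libraries were below all controls, control 2 included, and controls 1, 3 and 4 were close together. The log2 fold change was -1.80 ± 0.40 (SE, edgeR adjusted p = 0.793, DESeq2 adjusted p = 0.0139). The difference was -1.17 for heterozygous 1 against control 2 and -1.75 in the other set.

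Its neighbour Col4a5 differed less. It stood at 29.6, 19.3, 29.0 and 32.1 CPM in controls and at 15.6 and 20.1 CPM in heterozygous cells, so heterozygous library 2 was just above control 2. Per exon length, Col4a5 was 3.89 to 5.67 times Col4a6 in controls and 10.5 and 9.38 times in heterozygous libraries 1 and 2. The groups did not overlap in this ratio. Col4a4 had 4 to 16 reads in each control and 0 in both heterozygous libraries, at least 3.23-fold lower against a floor of 3 counts per library. Setting it to that bound left the median of the type IV genes at -1.28. Col4a3 had 11 reads in control 3 and 0 elsewhere and was not tested.

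Laminins, heterotrimers of an alpha, a beta and a gamma chain, were lower for 9 of 10 chains, with a median of -0.92 (-0.70 with length and GC trends removed). Of these, 6 had an unadjusted p under 0.05. Over all tested genes 53.9% were below 0 and 3.98% were lower at that p. In level per exon length the order was Lamb2 (17.3 CPM per kb), Lamc1 (12.6), Lama1 (6.69), Lamb1 (1.71) and Lama5 (1.57). Each of Lamb2, Lamc1 and Lama1 was above the next in all 6 libraries. Lamb1 and Lama5 overlapped. The beta 2 chain was 7.63 to 17.3 times the beta 1 chain per exon length, and Lama1 was 3.41 to 5.73 times Lama5.

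Lama1, the alpha chain of early basement membranes, stood at 88.2, 33.5, 94.1 and 96.1 CPM in controls and at 32.2 and 44.5 CPM in heterozygous cells. The gamma 1 chain gene Lamc1, shared by most laminins, stood at 137, 56.6, 124 and 182 CPM in controls and at 54.2 and 71.8 CPM in heterozygous cells. For both, control 2 lay between the heterozygous libraries and apart from the other controls. The log2 fold changes were -1.02 ± 0.42 (SE) and -0.99 ± 0.42 (edgeR adjusted p = 0.85 for each).

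Lama5 and Lamb2 did separate the groups. Lama5 stood at 19.8, 11.55, 25.9 and 32.5 CPM in controls and at 8.34 and 9.13 CPM in heterozygous cells (log2 fold change -1.36 ± 0.39, SE, edgeR adjusted p = 0.793). Lamb2 stood at 123, 82.5, 122 and 158 CPM in controls and at 74.3 and 70.4 CPM in heterozygous cells (-0.75 ± 0.25, edgeR adjusted p = 0.832). Control 2 was the lowest control for each, and the gap between it and the heterozygous libraries was small. The low chains Lamc3, Lama4, Lama2 and Lama3 had control means of 0.112 to 2.15 CPM, and of these Lama3 was above 0, with reads in 1 of 4 controls.

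The proteins that link the laminin and collagen networks differed by unequal amounts. Hspg2, which encodes the heparan sulfate proteoglycan perlecan, stood at 182, 129, 218 and 242 CPM in controls and at 105 and 110 CPM in heterozygous cells. Both heterozygous libraries were below all controls (log2 fold change -0.84 ± 0.26, SE, edgeR adjusted p = 0.793). Agrin (Agrn), a second heparan sulfate proteoglycan, stood at 499, 431, 442 and 366 CPM in controls and at 375 in both heterozygous libraries. Its groups overlapped, with a log2 fold change of -0.21 ± 0.18. Nid1 and Nid2, the nidogens, had log2 fold changes of -0.16 and -0.54 with overlapping groups. Reads of Nid2 may include some of Rtraf (155 CPM in controls), which overlaps its exons on the other strand. Col18a1, a collagen of basement membranes with heparan sulfate chains, had the highest mean level per exon length of any collagen (33.2 CPM per kb). It stood at 258, 157, 288 and 404 CPM in controls and at 144 and 150 CPM in heterozygous cells (-0.91 ± 0.34, edgeR adjusted p = 0.85), below every control.

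**Figure D2:**
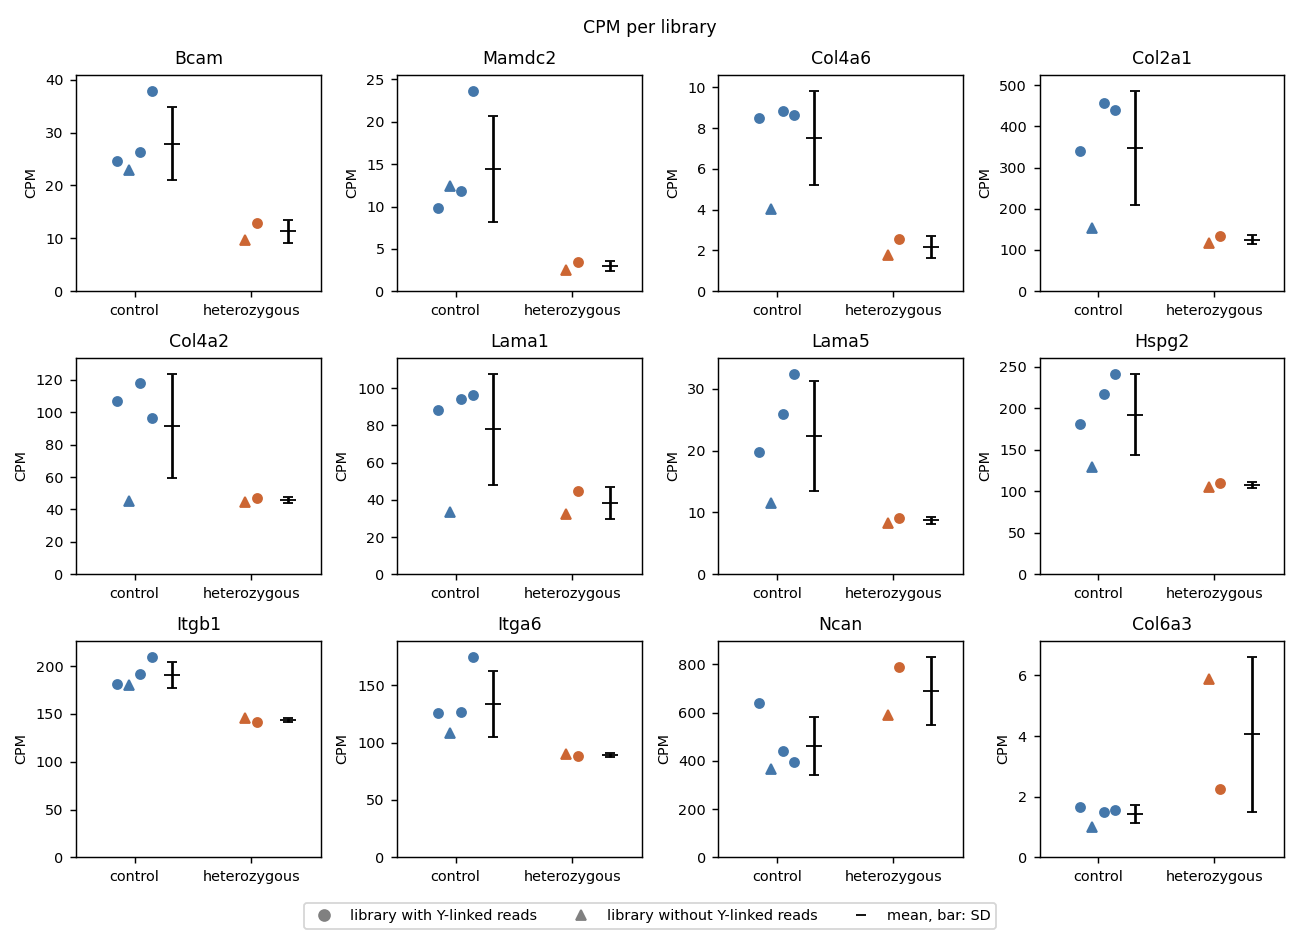
CPM of 12 members in each library, control blue and heterozygous orange, with the mean and SD of each group; triangles are the libraries without Y-linked reads. Control 2 sits beside the heterozygous libraries for Col4a2 and Lama1, and apart from them for Bcam, Mamdc2 and Itgb1.

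Fibrillar collagens form the fibres of connective tissue, and Col2a1 is best known from cartilage. The 11 genes were all below 0 on the log2 scale (median -0.68, or -0.56 with length and GC trends removed), where 53.9% of all tested genes were. At an unadjusted p under 0.05, 3 were lower, against 3.98% of all genes. Heterozygous library 1 was below control 2 for 3 of the 11 (median 0.07), or for 8 with length and GC trends removed (median -0.20). Heterozygous library 2 was below the mean of controls 1, 3 and 4 for all 11 (median -0.91). Col2a1 (ENSMUSG00000022483; chromosome 15, 97975602 to 98004695, minus strand) was the most abundant per exon length, at 29.6 CPM per kb. It stood at 341, 154, 456 and 441 CPM in controls and at 117 and 133 CPM in heterozygous cells. Both heterozygous libraries were below control 2, the lowest control, and far below the others. The log2 fold change was -1.48 ± 0.42 (SE, edgeR adjusted p = 0.793, DESeq2 adjusted p = 0.0429), with a difference of -0.39 for heterozygous 1 against control 2 and -1.62 in the other set. Col5a1, which starts and narrows collagen fibrils, stood at 95.5, 44.6, 101 and 134 CPM in controls and at 46.8 and 44.0 CPM in heterozygous cells (-1.05 ± 0.39, edgeR adjusted p = 0.85).

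The collagens of general connective tissue followed another pattern across libraries. Col1a1 stood at 22.5, 20.3, 31.1 and 29.2 CPM in controls and at 34.5 and 14.8 CPM in heterozygous cells. Col3a1 stood at 33.7, 18.2, 35.0 and 36.9 CPM in controls and at 39.4 and 16.2 CPM. In each case heterozygous library 1 was the highest of all 6 libraries and heterozygous library 2 the lowest. Col1a2 was likewise lowest in heterozygous library 2, at 21.3 CPM, against 56.9 CPM in heterozygous library 1. The summed level of 14 mesenchyme and meninges markers, such as Twist1 and Prrx1, had the same extremes: it ran from 83.9 to 135 CPM in controls, with heterozygous library 1 above them at 144 CPM and library 2 below them at 52.6 CPM. The part of these cells in the collagen values was not tested.

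The remaining collagens were mixed. Among fibril-associated collagens, which coat fibres, 5 of 8 were below 0, against 53.9% of all tested genes. Col9a2 stood at 18.0, 7.54, 27.0 and 27.2 CPM in controls and at 5.37 and 7.52 CPM in heterozygous cells (-1.63 ± 0.51, SE, edgeR adjusted p = 0.793). Col12a1 stood at 22.6, 8.04, 29.7 and 33.7 CPM in controls and at 6.62 and 7.52 CPM (-1.73 ± 0.53, edgeR adjusted p = 0.793). In both, control 2 stood only just above the heterozygous libraries. Among transmembrane collagens Col25a1, a neuronal membrane collagen, stood at 10.3, 4.56, 5.99 and 19.7 CPM in controls and at 2.36 and 2.14 CPM in heterozygous cells (-2.18 ± 0.62, edgeR adjusted p = 0.793, DESeq2 adjusted p = 0.028). Controls themselves varied over a wide range. Col23a1, the highest transmembrane collagen per exon length, stood at 3.38, 2.28, 5.303 and 4.76 CPM in controls and at 3.28 and 3.27 CPM in heterozygous cells. Its groups overlapped, with a log2 fold change of -0.27 ± 0.38.

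Col8a1, a short-chain network collagen, stood at 4.53, 3.12, 7.84 and 9.42 CPM in controls and at 1.06 and 2.07 CPM in heterozygous cells (-1.99 ± 0.55, SE, edgeR adjusted p = 0.793, DESeq2 adjusted p = 0.048). It was lower in both sets of libraries, by -1.51 and -1.72. Col6a3, a chain of the beaded-filament collagen VI, was the only member higher at an unadjusted p under 0.05. It stood at 1.66, 1.002, 1.48 and 1.57 CPM in controls and at 5.87 and 2.26 CPM in heterozygous cells (1.505 ± 0.44, edgeR adjusted p = 0.793). The 2 heterozygous libraries differed more from each other than any controls did. Without heterozygous library 1 its log2 fold change was 0.67, and the differences in the 2 sets of libraries were 2.50 and 0.51. Col6a1 was also highest in heterozygous library 1, the library with the highest mesenchyme marker sum, at 4.24 CPM against 1.69 to 2.59 CPM in controls. Col26a1 ranged from 6.58 to 8.79 CPM in controls, between the 2 heterozygous libraries at 13.1 and 3.90 CPM.

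Of the 5 matrix glycoproteins and lecticans, Ncan and Tnc were above 0 and Vcan, Fn1 and Mamdc2 below. Ncan, a chondroitin sulfate proteoglycan of the brain, had the highest mean per exon length of all members (74.7 CPM per kb), and was above Fn1 (50.6), the next, in 5 of 6 libraries. It stood at 639, 367, 443 and 397 CPM in controls and at 591 and 790 CPM in heterozygous cells. Control 1 lay above heterozygous library 1, so the groups overlapped. The log2 fold change was 0.58 ± 0.25 (SE, edgeR adjusted p = 0.85), with 0.68 and 0.71 in the 2 sets of libraries. With length and GC trends removed both heterozygous libraries lay above all controls, with a log2 fold change of 0.72. Versican (Vcan), its larger relative, stood at 143, 48.0, 159 and 127 CPM in controls and at 89.2 and 122 CPM in heterozygous cells (-0.18 ± 0.43).

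Fibronectin (Fn1), the classic ligand of alpha 5 beta 1 integrin, stood at 689, 426, 556 and 994 CPM in controls. In heterozygous cells it was at 442 and 439 CPM, above control 2 and below the others (-0.60 ± 0.32, SE, edgeR adjusted p = 0.905). Tnc, which encodes tenascin C, was low in every library, at 0.334 to 0.738 CPM in controls and at 1.41 and 0.732 CPM in heterozygous cells (0.92 ± 0.60). Mamdc2 (ENSMUSG00000033207; chromosome 19, 23302609 to 23448442, minus strand), which encodes a secreted proteoglycan with MAM domains, stood at 9.81, 12.5, 11.8 and 23.7 CPM in controls. In heterozygous cells it was at 2.54 and 3.42 CPM, with a wide gap to the lowest control. Its log2 fold change was -2.27 ± 0.42 (edgeR adjusted p = 0.793, DESeq2 adjusted p = 0.0001). Control 2 was not low for this gene, and the difference was -2.27 and -2.02 in the 2 sets of libraries.

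The plot of levels per exon length shows that a few receptors make up most of the integrin RNA. Itgb1, the beta chain shared by most matrix-binding integrins, was the highest integrin, at 42.9 CPM per kb, and did not overlap with Itgb8 (8.80), the next beta chain. Itgb8 was above Itgb5 (5.26) in all 6 libraries. Among alpha chains Itga6, a laminin receptor, stood at 13.2 CPM per kb, without overlap with Itga5 (4.51) and Itgav (4.45), which overlapped each other, and Itga3 (2.82) followed. All other alpha chains had means under 1 CPM per kb, the collagen-binding Itga1, Itga2, Itga10 and Itga11 among them.

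**Figure D3:**
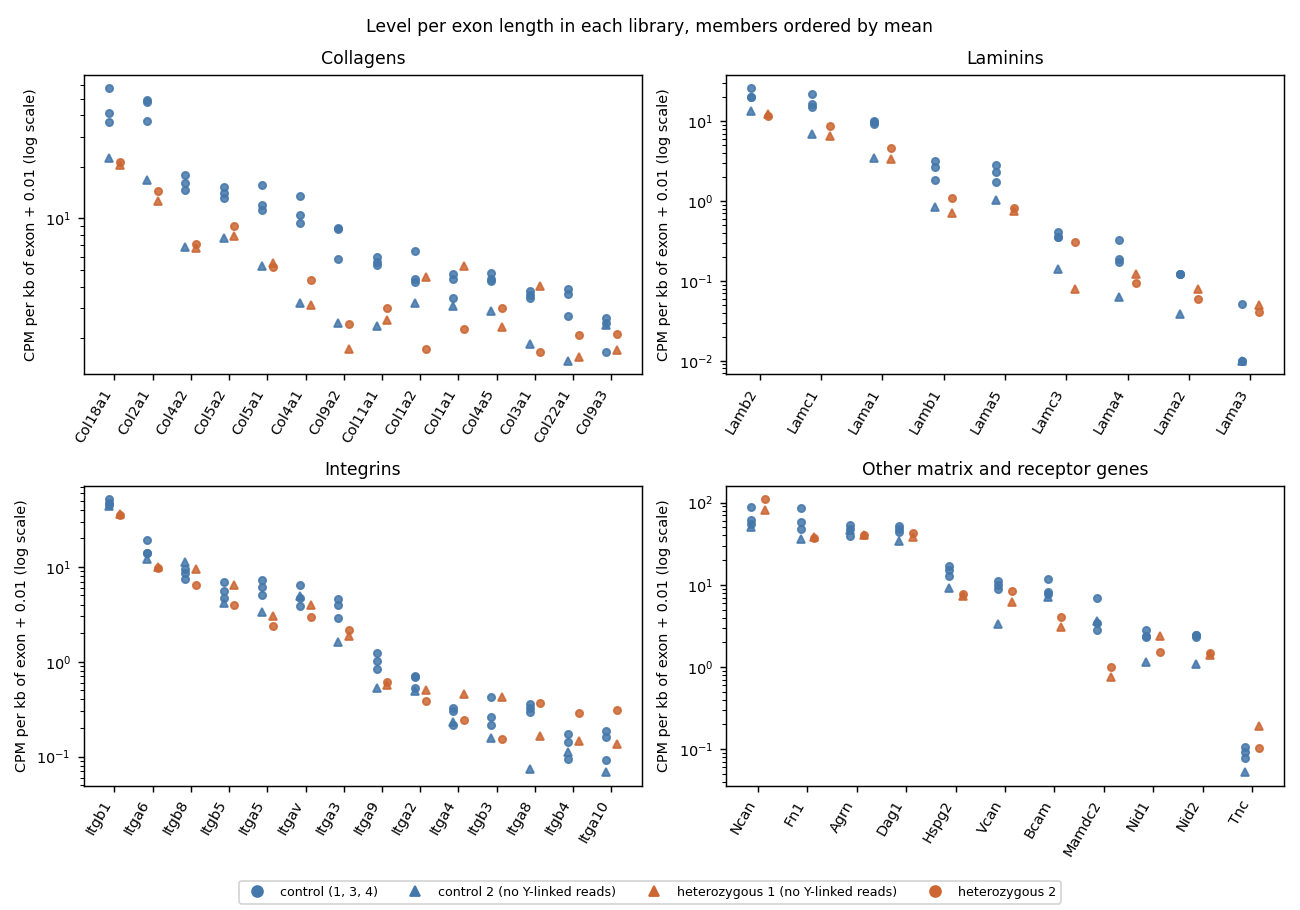
CPM per kb of exon plus 0.01 on a log axis, for abundant members of each family, 1 point per library. Itgb1 stands above all other integrins, Lamb2 and Lamc1 lead the laminins, Col18a1 and Col2a1 lead the collagens, and Ncan leads the rest.

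Itgb1 (ENSMUSG00000025809; chromosome 8, 128685654 to 128733200, plus strand) was lower by a small and even amount. It stood at 182, 180, 191 and 210 CPM in controls and at 145 and 142 CPM in heterozygous cells. Both heterozygous libraries were below all controls, and control 2 was not apart from the other controls. The log2 fold change was -0.41 ± 0.15 (SE, edgeR adjusted p = 0.85), with -0.31 and -0.45 in the 2 sets of libraries. Its partner Itga6 stood at 126, 108, 126 and 175 CPM in controls and at 90.4 and 88.1 CPM in heterozygous cells (-0.58 ± 0.22, edgeR adjusted p = 0.85), also without overlap. Itga5 stood at 24.7, 16.4, 30.0 and 35.6 CPM in controls and at 15.1 and 11.8 CPM in heterozygous cells (-0.99 ± 0.32, edgeR adjusted p = 0.793). It too was below every control, with control 2 the closest.

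Other integrins overlapped between the groups or were near the detection limit. Itgb8, which with alpha v binds latent TGF-beta, stood at 81.5 to 125 CPM in controls and at 106 and 70.98 CPM in heterozygous cells (-0.20 ± 0.23, SE). The log2 fold change was -0.03 ± 0.28 for Itgb5 and -0.52 ± 0.24 for Itgav. Itga9, a receptor for tenascin C among others, stood at 6.38, 4.03, 7.67 and 9.37 CPM in controls and at 4.31 and 4.68 CPM in heterozygous cells (-0.61 ± 0.35). Itga2, a collagen receptor chain, stood at 3.73, 3.45, 4.93 and 4.88 CPM in controls and at 3.51 and 2.68 CPM in heterozygous cells (-0.46 ± 0.30). For both genes at least 1 heterozygous library lay above the lowest control. Over all 15 tested alpha chains the median was -0.32, with 11 below 0. Over the 5 tested beta chains it was -0.03, with 3 below 0, where 53.9% of all tested genes were. The beta chain median rested on single libraries: it was -0.51 without heterozygous library 1 and 0.07 without heterozygous library 2. Chains of blood cells were low in level. The log2 fold change was -0.32 for Itgal and 1.30 for Itgam, the 2 tested leukocyte alpha chains. Itgal stood at 0.214, 0.529, 0.795 and 1.59 CPM in controls and at 0.707 and 0.549 CPM in heterozygous cells, within the control range, and Itgam ranged from 0.056 to 0.636 CPM over all libraries. Itgb2, the leukocyte beta chain, had 24 reads in control 4, 7 in heterozygous library 1 and at most 3 elsewhere. Control 4 also had the highest summed level of 12 macrophage and microglia markers, at 107 CPM against 2.05 to 17.1 CPM in the other libraries. Untested beside Itgb2 were Itgb6, Itgb7, Itgax, Col4a3, Col10a1 and Col19a1, each with at most 19 reads in a library.

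Both non-integrin laminin receptors were below 0, by unequal amounts. Bcam (ENSMUSG00000002980; chromosome 7, 19756131 to 19771016, minus strand), an immunoglobulin-like receptor for the laminin alpha 5 chain, stood at 24.6, 22.8, 26.4 and 37.9 CPM in controls. In heterozygous cells it was at 9.73 and 12.9 CPM, well below the lowest control. The log2 fold change was -1.30 ± 0.27 (SE, edgeR adjusted p = 0.793, DESeq2 adjusted p = 0.0128). It was -1.23 and -1.17 in the 2 sets of libraries and -1.28 with length and GC trends removed. Dag1, which encodes both subunits of dystroglycan, stood at 304, 215, 280 and 329 CPM in controls and at 240 and 269 CPM in heterozygous cells, within the control range (-0.15 ± 0.20). The list of glycosylation enzymes that act on dystroglycan had 10 of 15 tested genes below 0, with a median of -0.15, against 53.9% of all genes below 0, and 2 lower at an unadjusted p under 0.05, against 3.98%. The 2 were Gyltl1b (4.85, 4.70, 7.998 and 9.06 CPM in controls, 1.46 and 3.01 CPM in heterozygous cells) and B3galnt2 (-0.51 ± 0.16).

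**Figure D4:**
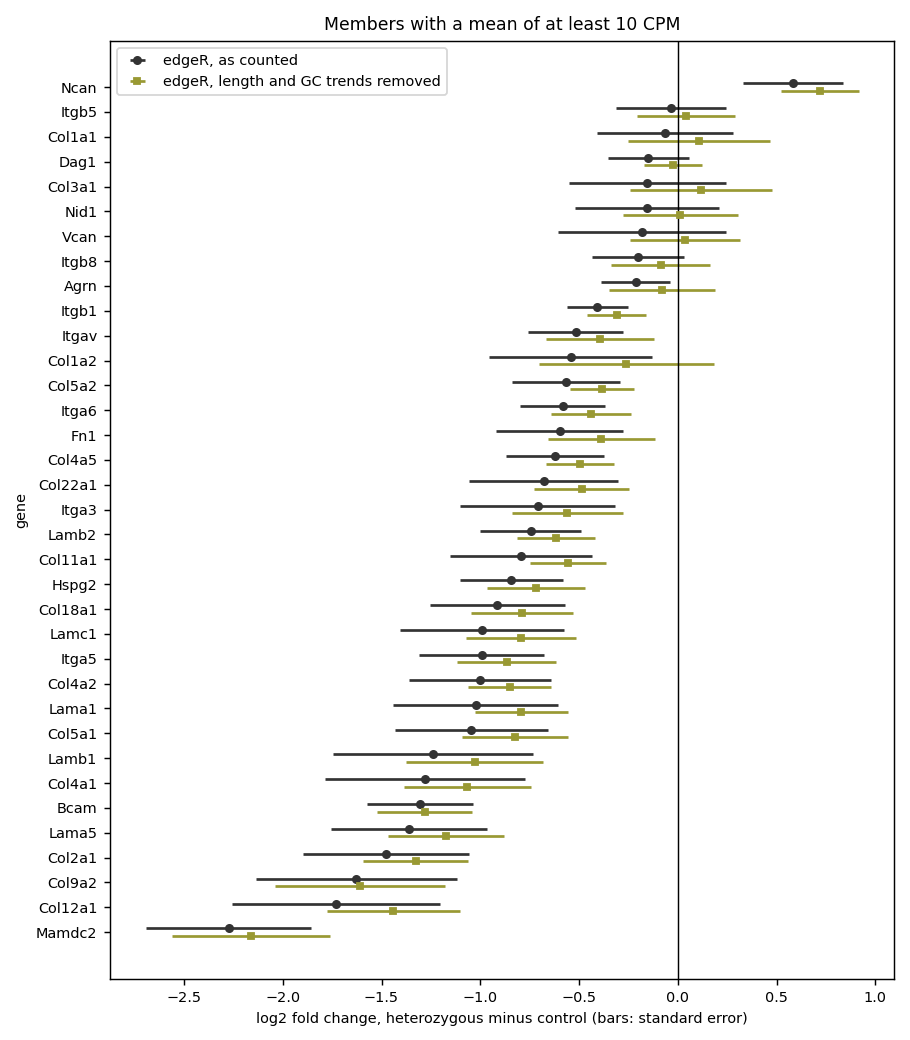
Log2 fold change with its standard error for the 35 members with a mean of at least 10 CPM, as counted (black) and with length and GC trends removed (olive). Ncan is the only member above 0 as counted, and most values lie closer to 0 once the trends are removed, with Mamdc2 and Bcam little moved.

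The 2 sets of libraries were also read together. For 31 members both heterozygous 1 was below control 2 and heterozygous 2 below the mean of the other controls (38.3%, against 26.9% of all tested genes). For 12 both differences were above 0 (14.8%, against 23.5%). Differences beyond -1 in both sets were found for Bcam, Mamdc2, Col4a6, Col8a1, Col13a1 and Col4a4 among others, named here after their values were seen. Of these, Col13a1 had 0 reads in heterozygous library 1 and a control range of 0.167 to 3.36 CPM. Col4a4 had 0 reads in both heterozygous libraries. The share of all tested genes with differences beyond -1 in both sets is not given, so these names cannot show whether members stand out.

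**Figure D5:**
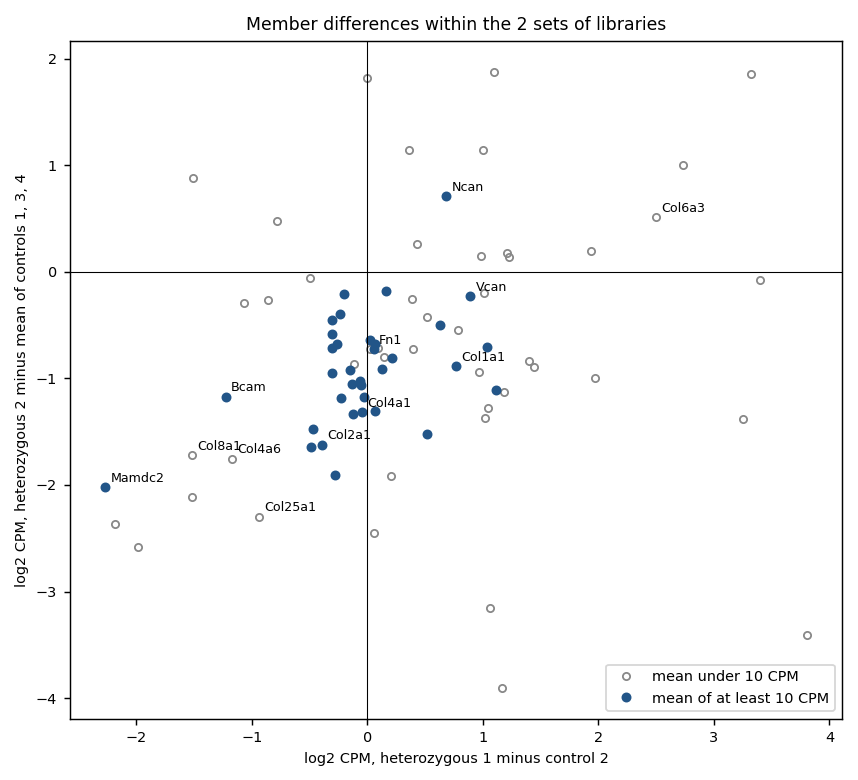
Each point is a tested member; the x axis is log2 CPM of heterozygous 1 minus control 2 and the y axis that of heterozygous 2 minus the mean of controls 1, 3 and 4. Most well expressed members (filled) lie near 0 on the x axis and below 0 on the y axis, and Bcam and Mamdc2 lie below -1 on both.

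Genes that build, modify or read the matrix were described from further lists, each with 0 genes passing edgeR over all genes. The genes named from them had an edgeR adjusted p of 0.793, or 0.832 for Gpc3. Over all tested genes 53.9% were below 0, 3.98% were lower and 1.75% higher at an unadjusted p under 0.05, and 8.14% had both heterozygous libraries below every control. Of 27 tested genes of collagen processing, 26 were below 0, with a median of -0.52 (-0.44 with length and GC trends removed). Of these 27, 9 had an unadjusted p under 0.05, all lower, against the 3.98% of all genes. The median was -0.13 for heterozygous 1 against control 2, with 19 of 27 below, and -0.77 for heterozygous 2 against the other controls, with all 27 below. The summed level did not separate the groups, at 1576 to 1965 CPM in controls and 1713 CPM in heterozygous library 1. Heterozygous library 2 was below every control, at 1377 CPM. Plod2, a lysyl hydroxylase of collagen, stood at 28.2, 37.1, 31.9 and 40.02 CPM in controls and at 21.5 and 17.9 CPM in heterozygous cells (-0.80 ± 0.21, SE). Adamts2, which trims procollagen, stood at 0.626 to 1.002 CPM in controls and at 0.118 and 0.081 CPM in heterozygous cells. For both, and for 12 of the 27 in all, the heterozygous libraries were below every control, against 8.14% of all genes.

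Other matrix proteins had 36 of 42 below 0, with a median of -0.68, 11 lower and 1 higher at an unadjusted p under 0.05, against 3.98% and 1.75% of all genes. Here too the median was -0.12 for heterozygous 1 against control 2 and -0.80 in the other set. Frem2, of the Fraser complex of basement membranes, stood at 34.7, 22.6, 41.5 and 52.7 CPM in controls and at 17.0 and 17.4 CPM in heterozygous cells (-1.14 ± 0.32, SE). Fbn2, a fibrillin, stood at 96.4, 42.5, 93.6 and 173 CPM in controls and at 37.4 and 29.8 CPM (-1.59 ± 0.50). The groups did not overlap for either gene. Matrix proteases and their inhibitors had 19 of 22 below 0, with a median of -0.31. Among them Timp4 had 0 reads in both heterozygous libraries and 0.241 to 1.13 CPM in controls, and DESeq2 called it (adjusted p = 0.028).

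Effectors inside the cell and surface proteoglycans differed less. Integrin adhesion effectors had 21 of 27 below 0, with a median of -0.19, which was -0.05 with length and GC trends removed. Flna, the actin crosslinker filamin A, stood at 738, 546, 793 and 991 CPM in controls and at 444 and 437 CPM in heterozygous cells (-0.80 ± 0.25, SE). It was the only effector of the 27 for which both heterozygous libraries were below all controls. Cell surface and hyaluronan proteoglycans had a median of 0.03, with 9 of 20 below 0. Gpc3, a glypican, stood at 240, 264, 211 and 503 CPM in controls and at 150 and 146 CPM in heterozygous cells (-1.04 ± 0.36), below every control.

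Markers of cells in which these matrix genes are also expressed varied between libraries. The summed level of 12 endothelial markers was 7.93 to 30.2 CPM in controls and 14.04 and 9.21 CPM in heterozygous cells. Cdh5 and Pecam1, which define endothelium, were at most 1.83 and 2.33 CPM in any library. Of the 10 tested endothelial markers 9 were below 0 (against 53.9% of all genes), with a median of -0.35. The endothelial median was 2.30 for heterozygous 1 against control 2 and -1.97 for heterozygous 2 against controls 1, 3 and 4. Surface ectoderm markers summed to 17.4 to 25.3 CPM in controls and to 16.7 and 13.2 CPM in heterozygous cells, below every control. Of the 12 tested, 7 were below 0 (against 53.9% of all genes), with a median of -0.66. At an unadjusted p under 0.05, 3 were lower (against 3.98%), and 3 had both heterozygous libraries below every control (against 8.14%). Of the 13 listed, Krt14, which defines epidermis, was at 0 in all 6 libraries, and the other 12 had enough reads to be tested. Of the 7 tested pericyte and mural markers, 2 were below 0 and 5 above (53.9% of all genes were below), with a median of 0.08. The markers of this list summed to 382 to 478 CPM in controls and to 350 and 271 CPM in heterozygous cells, below every control. Nearly all of that sum was Notch3, which radial glia also express, at 370 to 456 CPM in controls and 328 and 259 CPM in heterozygous cells, and the defining pericyte markers Rgs5 and Kcnj8 were at most 0.224 and 0.283 CPM in any library. Choroid plexus and hem markers summed to 143 to 359 CPM in controls and to 174 and 95.1 CPM in heterozygous cells. Erythroid markers summed to 31.5 to 139 CPM in controls and to 370 and 1.34 CPM.

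Neural markers varied as well. Radial glia markers summed to 5139, 3540, 5151 and 4514 CPM in controls and to 3546 and 4156 CPM in heterozygous cells, so control 2 and heterozygous library 1 were lowest. Of the 10 radial glia markers 7 were below 0 (against 53.9% of all tested genes), with a median of -0.27. Of 10 MGE markers 9 were above 0, where 7598 of 16495 tested genes were, with a median of 0.46. Their sum was 1029 to 2036 CPM in controls and 1604 and 2784 CPM in heterozygous cells. The MGE median was 0.05 for heterozygous 1 against control 2, with 4 of 10 below. It was 1.05 for heterozygous 2 against controls 1, 3 and 4. Of 10 neuronal markers all were above 0, against the same share of all genes, with a median of 0.54 (0.41 and 0.71 in the 2 sets). Their sum was 2041 to 3053 CPM in controls and 3486 and 4200 CPM in heterozygous cells. The part of these cell types in the member values was not tested.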

How the data were processed

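Cells went from the sorter into lysis buffer, and mRNA libraries were prepared with NuGEN reagents, per the labels' protocols. The submitters' processing notes name mm10 with the tools Trim Galore, STAR and HTSeq. Their versions, the annotation and the strand setting: not given in the sources used here. Reads of overlapping genes therefore cannot be separated. The authors deposited raw read counts for 38561 genes and normalized values (a signal: each count over the library's scaling factor) for 18065 genes. The deposited values were checked to equal the raw counts divided by 1 factor per library, and every gene in that table has at least 10 reads in a library. 0 columns belonged to no sample.

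Genes were kept by filterByExpr (16495) and tested on raw counts with edgeR 4.0.16 (run in R 4.3.3 with TMM, robust glmQLFit and the two-sided glmQLFTest). P-values were adjusted over all these genes by Benjamini-Hochberg, with a threshold of 0.05. The SE is the log2 fold change divided by the root of F. CPM use TMM factors; log2 CPM use a prior count of 2. Exon length, GC and coordinates came from GENCODE M21 (GRCm38, the assembly of mm10), matched for 36723 IDs. A count of 0 allows up to 3 counts, or 0.061 to 0.0835 CPM, counting error only. With 4 against 2 samples an exact permutation test cannot give a p below 0.0667. Alternatives were DESeq2 1.42.0, limma 3.58.1 (voom, and trend on log2 of normalized values plus 1), RLE scaling, other filters, the code's number (70, 71, 74 or 77) as a blocking term, Y-linked reads as a covariate, removal of length and GC trends (loess, span 0.5, as offsets) and leaving out each library. Scripts were tested on simulated counts. Members, roles and lists were chosen with earlier results of these data known, so no p is adjusted over a list alone. Members given in full are the most abundant per exon length in each role, the 10 with the smallest p at a mean of at least 1 CPM, those DESeq2 called, and Bcam, Mamdc2, Fn1, Dag1 and Itgb1; others are named within their role. Values of 1 withheld member are not reported here by name; it stays in the counts and medians.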

Additional observations from a re-analysis of the deposited data

Results flagged for a closer look

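Col4a6 was the only member among 26 tested in this way for which a control stood far from the other 3: control 2, at 4.03 CPM, against 8.52 to 8.86 CPM. The gap was larger than Dixon's 95% value for 4 samples allows, which chance passes in about 1 group in 20.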

How the results depend on the processing

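Over 16 alternatives the median log2 fold change of members stayed below 0, from -0.83 to -0.34, with 51 to 67 members below 0. DESeq2 called 61 genes and 7 members, and the replicate block called 11 genes and 0 members; the other alternatives called 0 genes. The number of members at an unadjusted p under 0.05, 26 in the main test, ran from 14 to 37 with a library left out, and was 45 without control 2 and heterozygous library 1 together, an alternative chosen after seeing the data. With replicates blocked by the number in their code it was 10; that number is shared between genotypes by control 1 and heterozygous library 2 only, and the labels do not say what it marks. The causes were not tested. With a single library left in the heterozygous group, that library is assumed to vary like the controls. Of the members given in full by the rule above, Col26a1 changed sign in 6 alternatives and Itgal in 3, and no other did. Members named within their role, such as Col1a1, Col3a1 and Lama1, were not followed over the alternatives, so their signs may change. Members under about 1 CPM rest on few reads. With 1 library left out, the log2 fold change was -0.37 for Magoh (without control 2), -0.34 for Fn1 (without control 4) and 0.35 for Ncan (without heterozygous library 2).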
